A study of Mus musculus with 4 samples.

Results

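The genes described here encode proteins that write, erase or read chemical marks on histones and DNA, or that move nucleosomes. They were chosen by gene symbol, without regard to expression: histone lysine demethylases (Kdm), histone lysine methyltransferases (Kmt), SET domain proteins (Setd), histone deacetylases (Hdac), DNA methyltransferases (Dnmt), TET dioxygenases (Tet), AT-rich interaction domain proteins (Arid), SMARC remodeller subunits (Smarc) and bromodomain proteins (Brd). The rule left out pseudogenes, Riken clone names and the Y-linked Kdm5d, and found 79 genes among the 22083 of the table. RNA was sequenced from group 2 innate lymphoid cells (ILC2s), tissue-resident lymphocytes that make type 2 cytokines and carry no rearranged antigen receptor. They were sorted from wild-type C57BL/6 mice aged 9 weeks. The lamina propria of the small intestine gave 2 libraries (SI-ILC2s) and white adipose tissue of the mesentery gave 2 (WAT-ILC2s), so both groups share strain, genotype and age and carry no treatment. The sources used here give neither the sort markers nor the number of mice behind a library. Whether separate mice gave the 2 libraries of a tissue is not in the labels either, so the p-values rest on a spread between libraries that may be technical.

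Nucleosomes limit access to DNA, and the enzymes described here set that limit. Acetylation of histone tails by acetyltransferases loosens chromatin and recruits bromodomain proteins, while histone deacetylases remove it, mostly inside corepressor complexes. Methylation of lysines on histone H3 marks promoters, enhancers, transcribed regions or silenced genes depending on the residue, and each mark has its own methyltransferases and demethylases. DNA methyltransferases place and copy methylation at CpG sites, and TET enzymes oxidise it as a step towards its removal. The BAF and PBAF complexes, built from SMARC, ARID and some BRD subunits around an ATPase, slide or evict nucleosomes, and in lymphocytes they open enhancers during differentiation.

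Levels are given in RPKM (reads scaled to gene length and to library size), always in the order replicate 1 and replicate 2 of each tissue. Read depth was estimated at 76600000 and 60000000 reads for SI-ILC2s and at 55500000 and 65400000 reads for WAT-ILC2s, from the steps between low values. Gata3, the lineage-defining transcription factor of ILC2s, stood at 354 and 377 RPKM in the intestinal and 338 and 397 RPKM in the adipose libraries, and all 10 of the 10 ILC2 markers examined passed the expression filter. Of the 10, 5 were called toward SI-ILC2s and 3 toward WAT-ILC2s, among them the IL-25 receptor gene Il17rb (164 and 141 against 14.3 and 10.3 RPKM) and the IL-33 receptor gene Il1rl1 (14.3 and 15.4 against 65.7 and 63.4 RPKM). The B cell markers Cd79a, Ms4a1 and Pax5 did not exceed 0.358 RPKM in any library. The adipocyte genes Adipoq, Plin1 and Lep did not exceed 0.180 RPKM in any library, while Fabp4 was higher in WAT-ILC2s (0.257 and 0.172 against 4.32 and 3.43 RPKM). All 4 of 4 red cell genes were higher in WAT-ILC2s, with sums of 27.4 and 9.05 RPKM in the SI-ILC2 libraries against 94.8 and 61.2 RPKM in the WAT-ILC2 libraries. The fibroblast genes Col3a1 and Dcn were called higher in WAT-ILC2s as well, and the sum of 4 fibroblast genes was 0.254 and 0.332 against 8.84 and 3.31 RPKM. Sums over 3 macrophage genes were 3.49 and 1.65 against 6.00 and 7.05 RPKM, with Lyz2 called higher in WAT-ILC2s. Sums over 4 intestinal epithelium genes (5.17 and 10.9 against 8.75 and 8.28 RPKM) and over 4 endothelial genes (4.33 and 5.51 against 3.61 and 5.11 RPKM) overlapped. Within them Epcam was called higher in WAT-ILC2s (lost without replicate 1 of either tissue, adjusted p up to 0.25) and Pecam1 higher in SI-ILC2s (lost without either SI-ILC2 library or WAT-ILC2 replicate 1, up to 0.15), while Cdh5, Kdr and Vwf, below the filter, were above in both WAT-ILC2 libraries. The part of these other cells in the results was not tested. In bulk RNA, fewer cells of a type and less RNA per cell cannot be told apart.

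All 79 members had a value above 0 in every library, and the median of their mean levels was 2.99 RPKM. Values ran from 0.0044 RPKM to the 34.5 RPKM of Hdac1 in WAT-ILC2 replicate 1, and 10 members had a mean of at least 10 RPKM. Of the 79, 61 reached 1 RPKM in at least 2 libraries and were tested, and 18 did not. Across the 61 tested members, Pearson's r between libraries was 0.980 for the pair from intestine and 0.974 for the pair from fat, and 0.791 to 0.828 for pairs across tissues. These are correlations across genes, which are not independent replicates. Together the members took 0.207% and 0.226% of summed RPKM in the intestinal libraries and 0.264% and 0.279% in WAT-ILC2s.

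More of these genes were higher in WAT-ILC2s than in SI-ILC2s. Limma on log2(RPKM + 1), with Benjamini-Hochberg adjustment over 8230 genes and a threshold of 0.05, called 8 of 61 members higher in SI-ILC2s (13.1%, against 17.9% of all tested genes). It called 23 of 61 higher in WAT-ILC2s (37.7%, against 29.6% of all tested genes), and 30 did not pass. The SI-ILC2 share lay below that of all genes and the WAT-ILC2 share above it. Both SI-ILC2 libraries exceeded both WAT-ILC2 libraries in 15 of 61 members (24.6%, against 29.8% of all tested genes). The reverse held for 36 (59.0%, against 45.9% of all tested genes), and in 10 the libraries overlapped. The median log2 change, SI-ILC2 minus WAT-ILC2, was -0.35 for the members and -0.15 for all tested genes. Changes of at least 1 on this scale were called for 6 members (9.84%, against 14.9% of all tested genes), so large differences were not more frequent here than elsewhere.

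The balance between directions depended on how the libraries were scaled to each other. The median change of all genes was 0.0015 with median-of-ratios scaling, -0.02 after quantile normalization and -0.26 with equal column sums. Calls among members were 13 higher in SI-ILC2s against 19 in WAT-ILC2s with median-of-ratios scaling, 13 and 19 with quantile normalization, and 5 and 30 with equal sums. For all genes the same 3 settings gave 1956 and 1817, 1772 and 1886, and 1125 and 2891. Relative to the median of all genes the member median was -0.20 as deposited. When either SI-ILC2 library was left out, fewer members and fewer of all genes were called in both directions. Without SI-ILC2 replicate 1 the WAT-ILC2 share of members was no longer above that of all genes but near it. The median change was then -0.29 for members and -0.12 for all genes. Without SI-ILC2 replicate 2 these medians were -0.32 and -0.17.

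**Figure D1:**
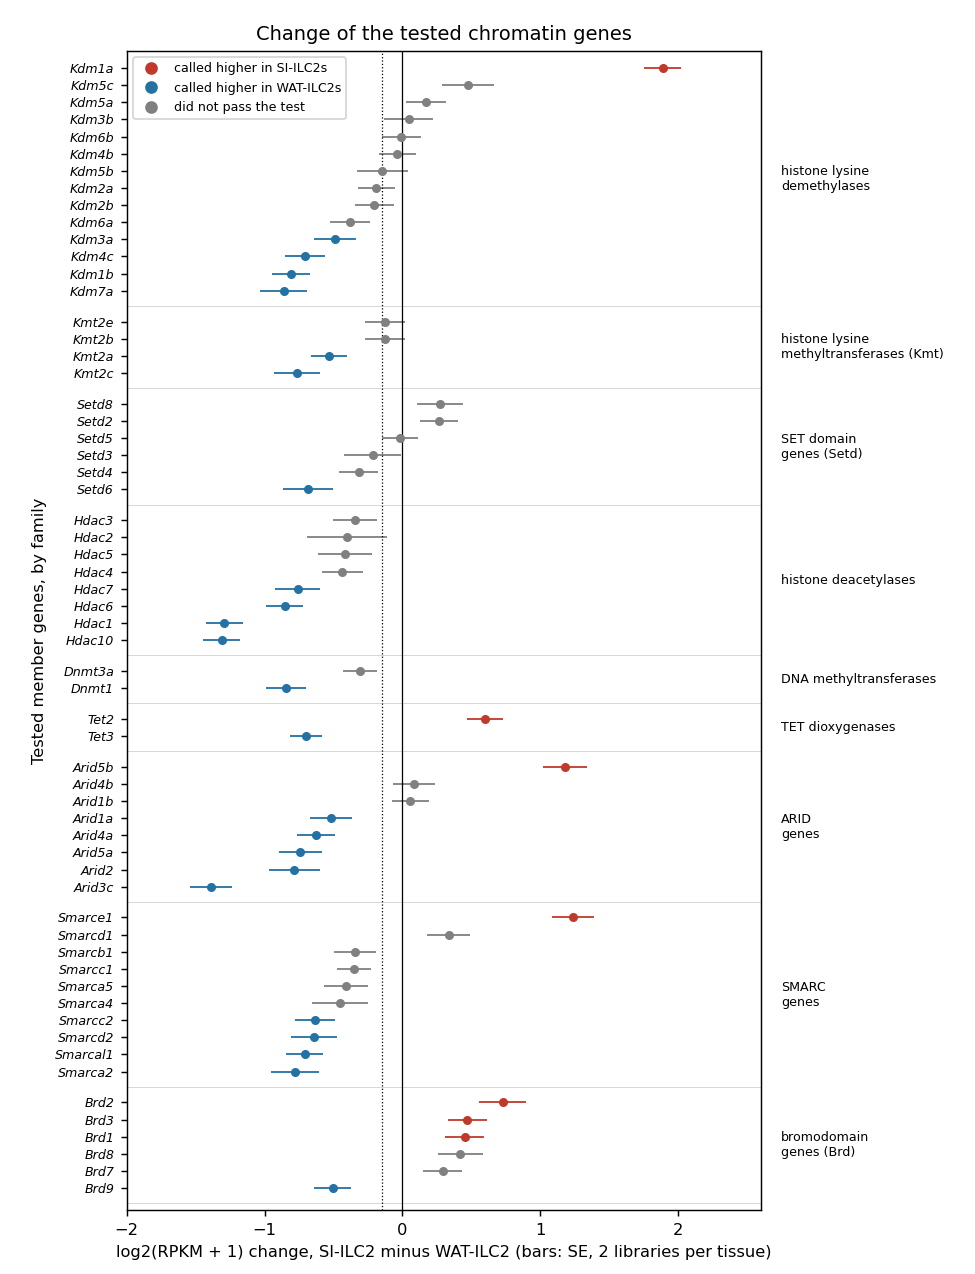
Log2 change of 60 tested members (x axis, log2(RPKM + 1), positive where SI-ILC2s were higher) by family (y axis), with called and uncalled members in different colours, bars for the standard error and a dotted line at the median of all genes (-0.15). Kdm1a, Smarce1 and Arid5b lie beyond 1 on the SI-ILC2 side, and Arid3c, Hdac10 and Hdac1 beyond 1 on the WAT-ILC2 side.

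Each side held 3 of the 6 members with large changes: Kdm1a, Smarce1 and Arid5b toward SI-ILC2s, and Hdac1, Hdac10 and Arid3c toward WAT-ILC2s. All 6 kept their call under every alternative setting in which they were tested, as did Tet2 in SI-ILC2s and Dnmt1, Hdac6, Kdm1b, Kdm4c, Kdm7a, Smarcal1 and Tet3 in WAT-ILC2s. Arid3c and Tet3 passed the filter only through the WAT-ILC2 libraries. The filter thus fixed their direction, and keeping the call under settings with that filter is no support for them. In GENCODE M21, an annotation of the mouse build GRCm38, Kdm1a lies on chromosome 4 (136550540 to 136602723, minus strand) and Arid3c on the same chromosome (41723836 to 41731142, minus strand). These had the largest called changes toward SI-ILC2s and WAT-ILC2s on the log2(RPKM + 1) scale. The place of Arid3c above Hdac10 (-1.39 against -1.31) rests on few reads and on the added constant, and with equal sums they were level (both -1.44). The 200 bases upstream of their RefSeq starts are shown so that the promoters of these extremes can be read side by side. They were taken from RefSeq, build GRCm38.p6, are written 5′ to 3′ on the strand of the gene, and hold no annotated exon. Capitals mark GC boxes (GGGCGG) and CCAAT boxes, on either strand.
Kdm1a, chr4:136602724-136602923, minus strand: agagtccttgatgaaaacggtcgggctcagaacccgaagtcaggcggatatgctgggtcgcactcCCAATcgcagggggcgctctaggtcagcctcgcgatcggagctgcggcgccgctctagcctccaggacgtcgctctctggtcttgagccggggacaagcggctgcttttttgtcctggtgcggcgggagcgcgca
Arid3c, chr4:41731143-41731342, minus strand: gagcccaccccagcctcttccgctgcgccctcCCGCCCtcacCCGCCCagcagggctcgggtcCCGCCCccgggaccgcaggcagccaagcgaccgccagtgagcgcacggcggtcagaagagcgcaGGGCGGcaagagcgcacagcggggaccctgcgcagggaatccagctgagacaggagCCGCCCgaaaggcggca
Both windows were rich in G and C (64.5% for Kdm1a and 74.5% for Arid3c, against a median of 53.0% over 32851 RefSeq windows of this length) and each held 21 CpG sites, against a median of 5. The Kdm1a window held 1 CCAAT box, a motif present in 29.3% of all windows. The Arid3c window held 5 GC boxes, a motif present in 31.0% of all windows. Neither window held the ETS core CCGGAA (10.7% of all windows), the E box CACGTG (5.26%), the cAMP response element core TGACG (15.7%), the AP-1 site TGANTCA (5.48%), the GATA site AGATAA (7.80%) or the TATA box TATAAA (9.96%). Both strands were searched, and no 2 of these motifs share their letters in the windows. A match describes letters only. Of the other large-change members, Arid5b had a window that touched an annotated exon, and Smarce1, Hdac1 and Hdac10 are named only.

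**Figure D2:**
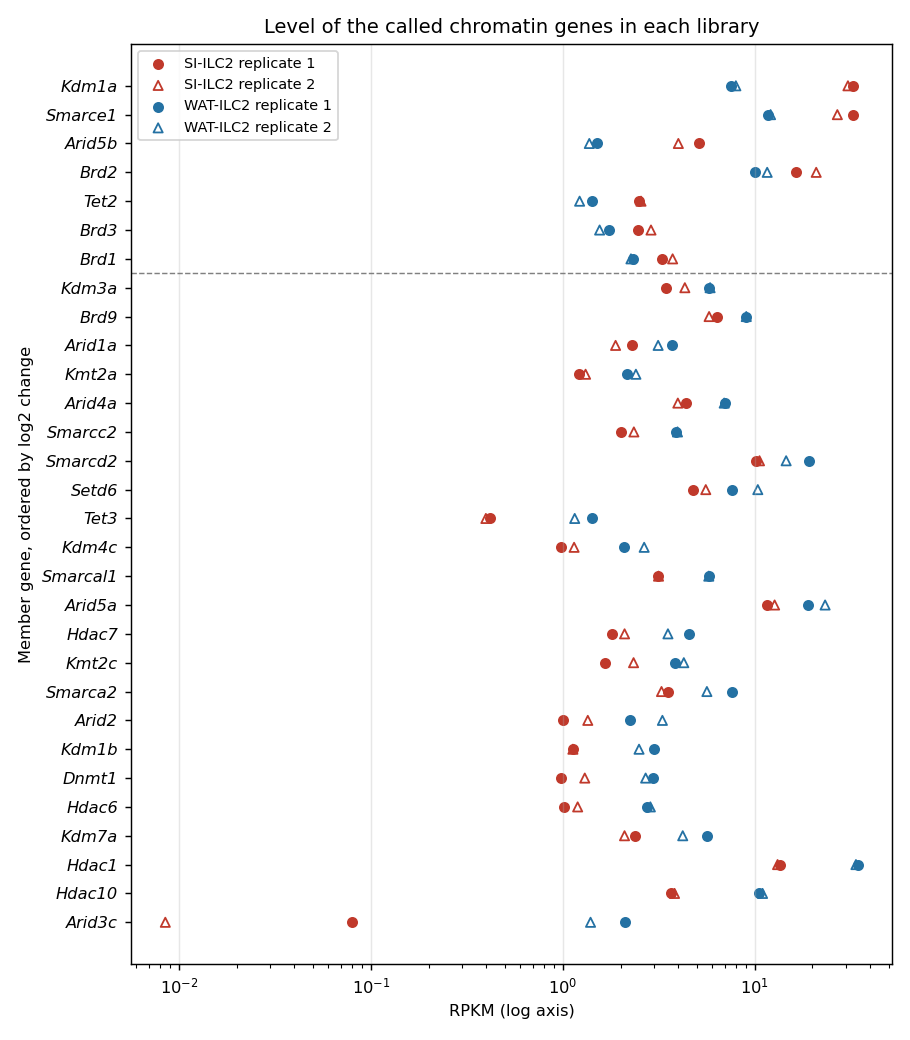
RPKM (log axis) of 30 called members in each of the 4 libraries, 1 point per library, with tissues distinguished by colour. Kdm1a and Smarce1 are near 30 RPKM in both SI-ILC2 libraries, and Hdac1 is near 34 RPKM in both WAT-ILC2 libraries.

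Among the 17 histone lysine demethylases, 1 was called higher in SI-ILC2s, 4 were called higher in WAT-ILC2s and 9 of the 14 tested did not pass. The WAT-ILC2 share, 28.6%, was near the 29.6% of all tested genes. Kdm1a (LSD1) removes mono- and dimethylation from lysine 4 of histone H3 and is a core subunit of the CoREST corepressor, where it sits with Hdac1 or Hdac2. It stood at 32.4 and 30.6 RPKM in the intestinal and 7.56 and 7.98 RPKM in the adipose libraries. The SI-ILC2 libraries were far above the WAT-ILC2 libraries, and the replicates lay close together. The means were 31.5 ± 1.25 and 7.77 ± 0.298 RPKM (SD, n = 2 each), a 4.05-fold difference, with a log2 change of 1.89 ± 0.13 (SE) and a limma adjusted p of 0.00032. Of 8230 tested genes, 105 changed more toward SI-ILC2s. Its paralog Kdm1b went the other way, with a log2 change of -0.81, although 505 of its exon bases overlap Dek on the opposite strand and strand use in counting is not given. Kdm1a thus held 39.0% and 36.5% of the summed RPKM of all Kdm genes in the intestinal libraries and 10.9% and 11.9% in WAT-ILC2s.

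Kdm7a removes methylation from lysines 9 and 27 of histone H3. It measured 2.39 and 2.10 RPKM in the SI-ILC2 libraries against 5.62 and 4.22 RPKM in the WAT-ILC2 libraries. The tissues did not overlap, and the log2 change was -0.86 ± 0.17 (limma adjusted p = 0.0082). The lysine 9 demethylases Kdm4c and Kdm3a were also called higher in WAT-ILC2s, with log2 changes of -0.71 and -0.49. The Kdm3a call did not hold with median-of-ratios scaling (adjusted p = 0.11), after quantile normalization (0.085), without the filter (0.076), or without any 1 of the libraries (SI-ILC2 replicates 0.26 and 0.063, WAT-ILC2 replicates 0.053 and 0.065).

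Kdm6a and Kdm6b, which erase the Polycomb mark on lysine 27, were not called. Kdm6b (JMJD3) stood at 10.3 and 11.2 RPKM in the intestinal and 11.5 and 10.1 RPKM in the adipose libraries. Its libraries overlapped, and the log2 change was -0.01 ± 0.14 (limma adjusted p = 0.97), positive with median-of-ratios scaling and quantile normalization. Kdm6a (UTX), an X-linked enzyme that works with the KMT2C and KMT2D complexes at enhancers, measured 2.55 and 2.53 RPKM in the SI-ILC2 libraries against 3.36 and 3.87 RPKM in the WAT-ILC2 libraries. The WAT-ILC2 libraries were above the SI-ILC2 libraries, and the change of -0.38 ± 0.14 missed the threshold (limma adjusted p = 0.068), which it passed with equal sums (0.036). By target residue, the 5 tested lysine 4 demethylases gave 1 call in each direction (20.0% each). The 4 tested lysine 9 enzymes of the Kdm3 and Kdm4 subfamilies gave 2 calls toward WAT-ILC2s (50.0%). That number was 1 with median-of-ratios scaling and with quantile normalization. Kdm7a, described above, is not among these 4. The 2 lysine 36 enzymes, Kdm2a and Kdm2b, gave 0. Of all tested genes, 17.9% were called toward SI-ILC2s and 29.6% toward WAT-ILC2s. Kdm5c, an X-linked lysine 4 demethylase, had a change of 0.47 that missed the threshold (limma adjusted p = 0.081) and passed with median-of-ratios scaling (0.028) and quantile normalization (0.029).

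On the writing side, 2 of 4 tested Kmt genes (50.0%) and 1 of 6 tested Setd genes (16.7%) were higher in WAT-ILC2s, against 29.6% of all tested genes. In SI-ILC2s 0 were higher, against 17.9% of all tested genes, with 1 SI-ILC2 call, Setd2, under median-of-ratios scaling and quantile normalization. Kmt2c (MLL3) monomethylates lysine 4 of histone H3 at enhancers. It measured 1.66 and 2.34 RPKM in the intestinal and 3.85 and 4.27 RPKM in the adipose libraries. The tissues were separate, and the log2 change was -0.76 ± 0.17 (limma adjusted p = 0.012, and 0.076 without SI-ILC2 replicate 1). Kmt2a (MLL1), which methylates the same residue at promoters of Hox and other developmental genes, stood at 1.22 and 1.31 RPKM in the SI-ILC2 libraries against 2.16 and 2.40 RPKM in the WAT-ILC2 libraries. Both WAT-ILC2 libraries were higher, with a change of -0.53 ± 0.13 (limma adjusted p = 0.018). That call did not hold without SI-ILC2 replicate 1 (0.092), SI-ILC2 replicate 2 (0.060) or WAT-ILC2 replicate 2 (0.051), or after quantile normalization (0.052). Kmt2d (MLL4), the paralog of Kmt2c, was below the filter at 0.446 and 0.491 RPKM in the intestinal and 0.705 and 0.441 RPKM in the adipose libraries. Kmt2e, the Kmt gene with the highest mean over the 4 libraries although Kmt2c exceeded it in WAT-ILC2s, encodes a SET domain protein without established methyltransferase activity. It measured 3.73 and 3.21 RPKM in the SI-ILC2 libraries against 3.75 and 3.98 RPKM in the WAT-ILC2 libraries, a change of -0.12 (limma adjusted p = 0.51) that was positive with median-of-ratios scaling and quantile normalization.

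Setd6, which methylates the RelA subunit of NF-kappaB, was the called Setd gene. It stood at 4.75 and 5.56 RPKM in the intestinal and 7.58 and 10.4 RPKM in the adipose libraries. The libraries did not overlap, but the WAT-ILC2 replicates were unequal, and the change of -0.69 ± 0.18 (limma adjusted p = 0.024) lost its call without SI-ILC2 replicate 1 (0.12) or WAT-ILC2 replicate 2 (0.062). Setd2 places trimethylation on lysine 36 of histone H3 along transcribed genes. It measured 4.15 and 4.31 RPKM in the SI-ILC2 libraries against 3.33 and 3.37 RPKM in the WAT-ILC2 libraries. The SI-ILC2 libraries were above, yet the change of 0.27 ± 0.14 did not pass (limma adjusted p = 0.15), except with median-of-ratios scaling (0.045) and quantile normalization (0.049). Setd3, an actin histidine methyltransferase and the Setd gene with the highest mean over the 4 libraries although not in SI-ILC2s alone, overlapped between tissues at 6.61 and 9.22 RPKM in the intestinal and 7.98 and 10.7 RPKM in the adipose libraries (change -0.21 ± 0.21, limma adjusted p = 0.42).

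Among the histone deacetylases, 4 of 8 tested were higher in WAT-ILC2s and 0 in SI-ILC2s (against 29.6% and 17.9% of all tested genes), and the family median was -0.60. The counts were the same with median-of-ratios scaling and quantile normalization, and 6 and 0 with equal sums. Summed over the 11 genes, levels were 48.4 and 51.5 RPKM in the SI-ILC2 libraries against 91.7 and 92.0 RPKM in the WAT-ILC2 libraries. Hdac1, a class I deacetylase and catalytic subunit of the SIN3, NuRD and CoREST corepressors, stood at 13.5 and 13.2 RPKM in the intestinal and 34.5 and 33.7 RPKM in the adipose libraries. Replicates were nearly equal and the tissues far apart, at 13.3 ± 0.250 and 34.1 ± 0.544 RPKM (SD, n = 2 each), 2.56-fold higher in WAT-ILC2s. The log2 change was -1.29 ± 0.13 (limma adjusted p = 0.00091). Hdac1 lies on chromosome 4 (129516104 to 129542713, minus strand).

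Hdac10, a class IIb enzyme that acts as a polyamine deacetylase, was 2.88-fold higher in WAT-ILC2s. It measured 3.65 and 3.82 RPKM in the SI-ILC2 libraries against 10.5 and 10.99 RPKM in the WAT-ILC2 libraries. The groups were again well separated, with a change of -1.31 ± 0.14 (limma adjusted p = 0.00096). Hdac10 lies on chromosome 15 (89123307 to 89128700, minus strand). Hdac6, the cytoplasmic tubulin deacetylase, had a change of -0.85, so both tested class IIb genes were higher in WAT-ILC2s. Hdac7, a class IIa enzyme that represses transcription with MEF2 factors and is known from thymocyte selection, stood at 1.81 and 2.10 RPKM in the intestinal and 4.52 and 3.53 RPKM in the adipose libraries. The WAT-ILC2 libraries were above, with a change of -0.76 ± 0.16 (limma adjusted p = 0.011, and 0.056 without SI-ILC2 replicate 1).

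The other tested class I enzymes, Hdac2 and Hdac3, did not pass. Hdac2, the close paralog of Hdac1, measured 6.34 and 11.1 RPKM in the SI-ILC2 libraries against 9.14 and 14.2 RPKM in the WAT-ILC2 libraries. Replicates of either tissue differed more than the tissues did, and the change was -0.40 ± 0.29 (limma adjusted p = 0.29). Hdac3, the catalytic subunit of the NCoR and SMRT corepressors, stood at 12.8 and 12.04 RPKM in the intestinal and 18.0 and 14.3 RPKM in the adipose libraries. The WAT-ILC2 libraries were above, but the change of -0.35 ± 0.16 did not pass (limma adjusted p = 0.12, and 0.038 with equal sums). The class IIa genes Hdac4 and Hdac5 had limma adjusted p-values of 0.054 and 0.13, and Hdac4 passed with equal sums (0.031).

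DNA methylation enzymes were expressed at low levels. Dnmt1, which copies CpG methylation onto newly replicated DNA, stood at 0.982 and 1.30 RPKM in the SI-ILC2 libraries against 2.97 and 2.70 RPKM in the WAT-ILC2 libraries. The tissues were separate at 1.14 ± 0.227 and 2.83 ± 0.186 RPKM (SD, n = 2 each), with a log2 change of -0.84 ± 0.14 (limma adjusted p = 0.0048). On this scale a change in a gene near 1 RPKM is understated. The proliferation genes Mcm2, Mcm5 and Pcna were called higher in WAT-ILC2s too, and 4 of 10 proliferation genes passed the filter. The Mcm5 call was lost without either SI-ILC2 library or WAT-ILC2 replicate 2, and the Pcna call without either SI-ILC2 library or WAT-ILC2 replicate 1 (adjusted p up to 0.10 and 0.18). The sum of the 10 was 66.9 and 55.2 RPKM in the intestinal and 117 and 87.8 RPKM in the adipose libraries. Most of it was Pcna, at 55.0 and 43.4 against 98.2 and 68.4 RPKM. Mcm3 was not called (limma adjusted p = 0.17). Below the filter, Cdk1, Ccnb2 and Bub1 overlapped between tissues, while Mki67, Top2a and Ccnb1 were above in both WAT-ILC2 libraries. Mki67 measured 0.105 and 0.148 RPKM in the SI-ILC2 libraries against 0.268 and 0.189 RPKM in the WAT-ILC2 libraries. The part of proliferation in the Dnmt1 difference was not tested.

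The de novo methyltransferase Dnmt3a measured 1.09 and 1.13 RPKM in the intestinal and 1.51 and 1.70 RPKM in the adipose libraries. The WAT-ILC2 libraries were above, with a change of -0.30 ± 0.12 that did not pass (limma adjusted p = 0.084, and 0.046 with equal sums). Dnmt3b, the other de novo enzyme, was below the filter at 0.408 and 0.199 RPKM in the SI-ILC2 libraries against 0.594 and 0.787 RPKM in the WAT-ILC2 libraries. The TET enzymes went in opposite directions. Tet2, the TET gene with the highest level, stood at 2.49 and 2.56 RPKM in the intestinal and 1.42 and 1.22 RPKM in the adipose libraries. It was higher in SI-ILC2s without overlap (0.60 ± 0.13, limma adjusted p = 0.012). Tet3 measured 0.416 and 0.398 RPKM in the SI-ILC2 libraries against 1.41 and 1.15 RPKM in the WAT-ILC2 libraries. It was higher in WAT-ILC2s (-0.70 ± 0.12, limma adjusted p = 0.0045), but passed the filter only through those libraries. With no filter its adjusted p was 0.021. Tet1 was below the filter, at 0.0396 and 0.0734 RPKM in the intestinal and 0.291 and 0.261 RPKM in the adipose libraries.

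In the BAF and PBAF remodelling complexes a single subunit, Smarce1, was called higher in SI-ILC2s (7.69%, against 17.9% of all tested genes). Of the 13 tested, 6 were called higher in WAT-ILC2s (46.2%, against 29.6%). With other scalings these counts were 3 and 3 (median-of-ratios), 3 and 4 (quantile) and 1 and 8 (equal sums). Shares of all tested genes were then 23.8% and 22.1%, 21.5% and 22.9%, and 13.7% and 35.1%. Smarce1 (BAF57) is an HMG box DNA-binding subunit of both complexes. It stood at 32.4 and 26.95 RPKM in the intestinal and 11.8 and 12.1 RPKM in the adipose libraries. The tissues were well apart, at 29.7 ± 3.86 and 11.9 ± 0.211 RPKM (SD, n = 2 each), 2.49-fold higher in SI-ILC2s. The log2 change was 1.24 ± 0.15 (limma adjusted p = 0.0015). Smarce1 lies on chromosome 11 (99209047 to 99231017, minus strand), and the annotation names a pseudogene of it, so reads could be split between copies.

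Summed over the 14 BAF and PBAF genes, levels were similar in the tissues, at 75.9 and 72.8 RPKM in the SI-ILC2 libraries against 77.7 and 74.0 RPKM in the WAT-ILC2 libraries. Smarce1 supplied 42.7% and 37.0% of that sum in SI-ILC2s against 15.2% and 16.4% in WAT-ILC2s. Without Smarce1 the sum was 43.5 and 45.8 RPKM in the intestinal and 65.9 and 61.9 RPKM in the adipose libraries, so the sum of the remaining subunits was lower in both SI-ILC2 libraries. Single subunits differed from that sum: Smarcd1 and Brd7, which were not called, and Smarcd3, below the filter, were above in both SI-ILC2 libraries, and Arid1b overlapped. These are sums of mRNA levels and say nothing of complex composition.

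**Figure D3:**
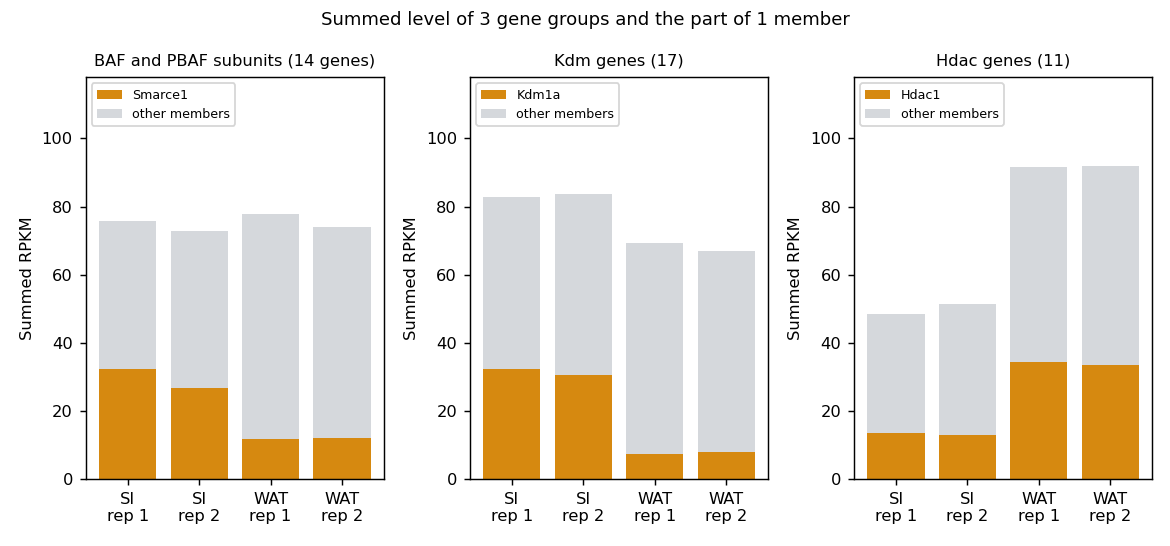
Summed RPKM of the Kdm, Hdac, and BAF and PBAF genes (y axis) in each of the 4 libraries, with Kdm1a, Hdac1 and Smarce1 shown as their own part of the bar. The BAF and PBAF bars are of similar height (72.8 to 77.7 RPKM) while the Smarce1 part runs from 37.0% to 42.7% in SI-ILC2s and from 15.2% to 16.4% in WAT-ILC2s.

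Of the alternative ATPases of these complexes, Smarca2 (BRM) was called and Smarca4 (BRG1) was not. Smarca2 measured 3.54 and 3.27 RPKM in the SI-ILC2 libraries against 7.63 and 5.64 RPKM in the WAT-ILC2 libraries. The WAT-ILC2 libraries were above, with a change of -0.78 ± 0.17 (limma adjusted p = 0.013, and 0.052 without SI-ILC2 replicate 2). Smarca4 stood at 4.14 and 6.19 RPKM in the intestinal and 6.61 and 8.09 RPKM in the adipose libraries. Its tissues did not overlap either, but the replicates were wide apart and the change was -0.45 ± 0.20 (limma adjusted p = 0.11). Whether the changes of Smarca2 and Smarca4 differ was not tested. The core subunits Smarcc2 and Smarcd2 were called higher in WAT-ILC2s (-0.63 and -0.64). The call of Smarcc2 was lost without SI-ILC2 replicate 1 (0.091), and that of Smarcd2 without SI-ILC2 replicate 1 (0.10), SI-ILC2 replicate 2 (0.070) or WAT-ILC2 replicate 1 (0.072) and with median-of-ratios scaling (0.066). Outside these complexes, the annealing helicase Smarcal1 was higher in WAT-ILC2s (-0.71), and the ISWI ATPase Smarca5 did not pass (limma adjusted p = 0.079, and 0.042 with equal sums).

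Among the ARID genes, which encode DNA-binding proteins of several complexes, 1 of 8 tested was called higher in SI-ILC2s (12.5%) against 5 in WAT-ILC2s (62.5%). Of all tested genes the shares were 17.9% and 29.6%. Arid5b, a DNA-binding partner of the demethylase PHF2, measured 5.11 and 4.002 RPKM in the SI-ILC2 libraries against 1.4995 and 1.38 RPKM in the WAT-ILC2 libraries. The SI-ILC2 libraries were well above, at 4.55 ± 0.782 against 1.44 ± 0.0879 RPKM (SD, n = 2 each), 3.17-fold. The log2 change was 1.18 ± 0.16 (limma adjusted p = 0.0022). Arid5b lies on chromosome 10 (68092520 to 68278740, minus strand). Its relative Arid5a, an RNA-binding protein known to stabilise cytokine mRNAs and the most abundant ARID gene here, stood at 11.6 and 12.7 RPKM in the intestinal and 18.9 and 23.3 RPKM in the adipose libraries. It was higher in both WAT-ILC2 libraries, a change of -0.74 ± 0.16 (limma adjusted p = 0.010, and 0.068 without SI-ILC2 replicate 1).

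Arid3c, of the family of B cell regulator of IgH transcription, was near 0 in SI-ILC2s. It measured 0.0794 and 0.0085 RPKM in the SI-ILC2 libraries against 2.11 and 1.40 RPKM in the WAT-ILC2 libraries. At the estimated depths these were about 11 and 1 reads in SI-ILC2s against 207 and 162 reads in WAT-ILC2s, so no ratio is given, and the log2 change of -1.39 ± 0.15 (limma adjusted p = 0.0011) depends on the added constant. Arid3c passed the filter only through the WAT-ILC2 libraries, so the filter fixed its direction, and its adjusted p with no filter was 0.0029. Every other tested member had at least 187 reads in each library by this estimate. Arid1a, the DNA-binding subunit that defines the BAF complex together with its alternative Arid1b, stood at 2.30 and 1.88 RPKM in the intestinal and 3.72 and 3.14 RPKM in the adipose libraries. The tissues were separate with a change of -0.52 ± 0.15 (limma adjusted p = 0.034). That call was lost with median-of-ratios scaling (0.097), quantile normalization (0.12) and no filter (0.067), and without SI-ILC2 replicate 1 (0.069), SI-ILC2 replicate 2 (0.18) or WAT-ILC2 replicate 1 (0.093). Arid2, the PBAF counterpart, and Arid4a, a SIN3 corepressor subunit, had changes of -0.78 and -0.63. Without SI-ILC2 replicate 1 their calls were lost (0.065 and 0.052), and that of Arid4a also without SI-ILC2 replicate 2 (0.080).

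The bromodomain genes were the family with the most calls toward SI-ILC2s. All 7 were tested, and the family median was 0.45. Of them 4 were called higher in SI-ILC2s (57.1%, against 17.9% of all tested genes) and 1 in WAT-ILC2s (14.3%, against 29.6%). With median-of-ratios scaling and with quantile normalization the counts were 6 and 0, and with equal sums they were 1 and 1, so the number of calls depended on scaling. Brd2, a BET protein that binds acetylated histones through tandem bromodomains, measured 16.4 and 20.9 RPKM in the SI-ILC2 libraries against 9.99 and 11.6 RPKM in the WAT-ILC2 libraries. The SI-ILC2 libraries were above, and the change was 0.73 ± 0.17 (limma adjusted p = 0.015, and 0.094 without SI-ILC2 replicate 2). Its exons share 765 bases with genes on the opposite strand, H2-DMa among them.

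The calls of Brd3 (0.47) and Brd1 (0.45) were lost under several alternatives. With equal sums their adjusted p-values were 0.082 and 0.10, and without the filter both were 0.077. Without SI-ILC2 replicate 1 they were 0.070 and 0.10, and without SI-ILC2 replicate 2 they were 0.16 and 0.19. Without WAT-ILC2 replicate 2 they were 0.10 and 0.093, and without WAT-ILC2 replicate 1 the Brd1 call was lost (0.067). Brd9, a subunit of the non-canonical BAF complex, was the family's call toward WAT-ILC2s, at 6.35 and 5.79 RPKM in the SI-ILC2 libraries against 9.01 and 9.04 RPKM in the WAT-ILC2 libraries. The tissues were separate (-0.51 ± 0.14, limma adjusted p = 0.024). The Brd9 call was lost with median-of-ratios scaling (0.095), with quantile normalization (0.060) and without SI-ILC2 replicate 1 (0.095) or SI-ILC2 replicate 2 (0.15).

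The 18 members below the filter lay between 0.0044 and 1.03 RPKM. Both SI-ILC2 libraries were above both WAT-ILC2 libraries in 4 of them, both WAT-ILC2 libraries were above in 9, and 5 overlapped. No such count was made over all genes below the filter, so these numbers have no background. With no filter, limma called Kdm4d higher in SI-ILC2s (adjusted p = 0.033) and Hdac8 (0.048) and Tet1 (0.023) higher in WAT-ILC2s. The other 15 gave no call.

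Ratios between members within a library do not depend on a scaling factor of the library. The pairs below were chosen after the values had been seen, so they are a description and have no test. Kdm1a to Hdac1, partners in the CoREST complex, was 2.40 and 2.33 in SI-ILC2s against 0.219 and 0.237 in WAT-ILC2s, so the more abundant mRNA of the pair changed with tissue. Kdm1a to Kdm1b was 28.8 and 27.1 against 2.54 and 3.19. Smarce1 to Smarcd2, both BAF subunits, was 3.20 and 2.54 against 0.617 and 0.829, and Arid5b to Arid5a was 0.439 and 0.315 against 0.0792 and 0.0591. Tet2 exceeded Tet3 in SI-ILC2s (5.99 and 6.43) and nearly equalled it in WAT-ILC2s (1.01 and 1.06). Other pairs moved less. Smarca2 to Smarca4 overlapped between tissues (0.856 and 0.528 against 1.15 and 0.697). Hdac1 to Hdac2 (2.13 and 1.18 against 3.77 and 2.37), Arid1a to Arid1b (1.13 and 0.825 against 1.89 and 1.49) and Dnmt1 to Dnmt3a (0.904 and 1.15 against 1.96 and 1.59) were lower in both SI-ILC2 libraries, and Kdm6b to Kdm6a (4.02 and 4.43 against 3.41 and 2.62) was above in both.

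**Figure D4:**
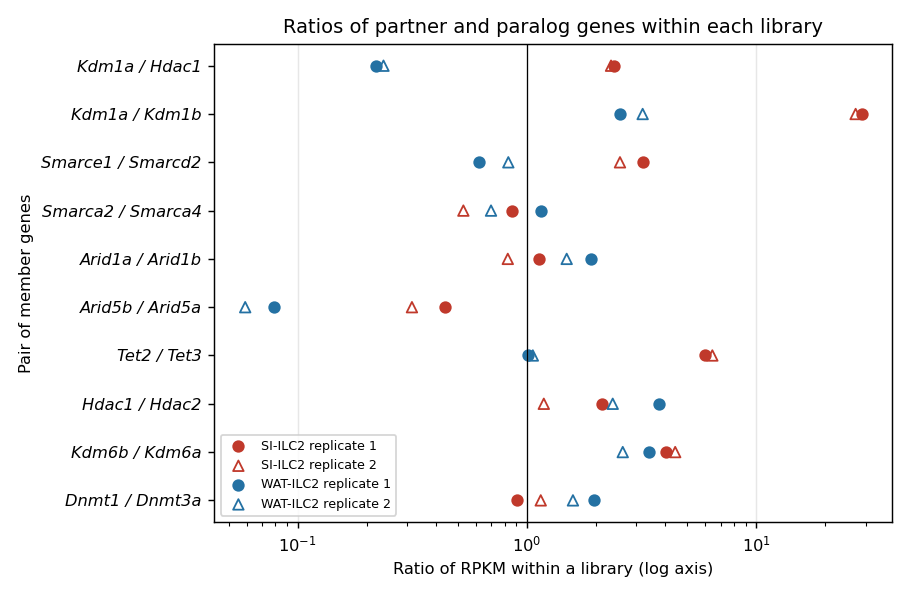
Ratio of RPKM within a library (log axis) for pairs of members, 1 point per library, with tissues distinguished by colour. Kdm1a to Hdac1 lies above 1 in both SI-ILC2 libraries (2.40 and 2.33) and below 1 in both WAT-ILC2 libraries (0.219 and 0.237).

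Of 122 other chromatin genes, from 8 lists outside the symbol rule, 102 were tested, and the median change was -0.30. Calls numbered 9 toward SI-ILC2s (8.82%, against 17.9% of all tested genes) and 35 toward WAT-ILC2s (34.3%, against 29.6%). With median-of-ratios scaling the WAT-ILC2 share was 24.5% against 22.1% of all genes, with quantile normalization 21.6% against 22.9%, and with equal sums 44.1% against 35.1%. The WAT-ILC2 share was thus near the background under the first pair of these scalings, while the SI-ILC2 share lay below it under all 3 (11.8% against 23.8%, 10.8% against 21.5% and 7.84% against 13.7%). Of 27 tested Polycomb genes, 2 were higher in SI-ILC2s against 8 in WAT-ILC2s (2 and 4 with quantile normalization), and the WAT-ILC2 share of 29.6% equalled that of all tested genes. Ezh2, the methyltransferase that places the lysine 27 mark erased by Kdm6a and Kdm6b, measured 1.37 and 1.82 RPKM in the intestinal and 7.84 and 7.57 RPKM in the adipose libraries. It was higher in WAT-ILC2s (-1.75 ± 0.15, limma adjusted p = 0.00060). The part of proliferation, whose genes were given beside Dnmt1, was not tested here either. Phf19, a PRC2 cofactor, was also higher in WAT-ILC2s (-1.32), and Phc2, a PRC1 subunit, was higher in SI-ILC2s (0.84).

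Of 10 tested acetyltransferases and coactivators, 1 was higher in SI-ILC2s (Hat1, which acetylates newly made histone H4, 0.95) and 3 in WAT-ILC2s (Kat2b, or PCAF, -1.46, and Ncoa1, -0.996, had the largest changes). Of 14 corepressor subunits, 1 was higher in SI-ILC2s (7.14%) against 7 in WAT-ILC2s (50.0%). With median-of-ratios scaling these counts were 1 and 3. The paralogs Tbl1x and Tbl1xr1, exchange factors of NCoR, were called in opposite directions (0.94 and -1.04), and the methyl-CpG binding NuRD subunit Mbd2 was higher in WAT-ILC2s (-1.03). Of 7 further BAF and PBAF subunits, 0 were higher in SI-ILC2s against 4 in WAT-ILC2s (57.1%), among them Pbrm1 (-0.81), which defines PBAF. Of 18 CHD, INO80, SRCAP and BAZ remodellers, 1 was higher in SI-ILC2s (5.56%), Baz2b (0.80). In WAT-ILC2s 6 were higher (33.3%), of which Chd2 (-0.99) changed the most. The balance was 2 and 2 with quantile normalization. Of 14 other histone methyltransferases, 2 were higher in SI-ILC2s (14.3%), of which Prmt6 (0.91) changed more. In WAT-ILC2s 5 were higher (35.7%). Of those 5, Suv39h2 (-1.08), which methylates lysine 9, and Nsd1 (-1.03) changed the most. Of 8 COMPASS cofactors and DNA methylation readers, 1 was higher in SI-ILC2s (12.5%) against 2 in WAT-ILC2s (25.0%). Of the latter 2, Men1 (-1.16), the scaffold of the KMT2A and KMT2B complexes, changed more. Of 4 sirtuins, which are NAD-dependent deacetylases, 1 was called higher in SI-ILC2s (25.0%), Sirt7 (0.56). That call was lost when either SI-ILC2 library was left out.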

How the data were processed

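RNA was sequenced from 4 libraries, and the authors deposited RPKM values for 22083 genes, 1 column per library, with replicates not pooled. STAR 2.6.0, featureCounts 1.6.0 and Subread were used on build GRCm38 (mm10), per the submitters' processing notes. The sources used here name no annotation, strand option, filter or handling of multi-mapped reads. RPKM corrects for gene length and library size only, so abundant transcripts can lower the rest. Column sums ran from 136705 to 158718, and the repeat-derived Gm10800 took 1.68% to 5.78% of them.

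Groups came from sample titles. Genes with at least 1 RPKM in at least 2 libraries were kept (8230). log2(RPKM + 1) was compared with limma 3.58.1 in R 4.3.3 (variance trend, no covariate, prior degrees of freedom 4.39 added to 2), with Benjamini-Hochberg adjustment over all kept genes. This scale understates changes of low genes. An exact permutation test of 1 gene, at 2 libraries a tissue, has a smallest p of 0.333, so none was run. Scripts were tested on simulated data. Depth was estimated from single-exon genes, where 82.8% to 84.3% of values fell within 0.1 of a whole read (multiples of a depth would do as well). Coordinates come from GENCODE M21.

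The members and lists were chosen with earlier results of these data known. Values of all libraries were printed for called members with an absolute log2 change of at least 1, for the most abundant member and the largest call in each direction of each family, and for 18 listed members. Counts cover all members, but values of 1 called member are not reported here and it is not drawn. Other members have 1 value, or the adjusted p at which a call was lost. Of each other chromatin list, up to 2 called genes in each direction were named. Alternatives were 2 other pseudocounts, no filter, a filter at RPKM 5, 3 other scalings, limma without trend, limma with the robust option, a replicate block, and leaving out each library. Tables and figures used matplotlib 3.10.9, numpy 2.4.6 and pandas 2.3.3 under Python 3.11.15.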

Additional observations from a re-analysis of the deposited data

How the results depend on the processing

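No called member changed direction under the 14 alternatives, although the main filter fixed the direction of Arid3c and Tet3. Of the calls, 10 of 23 toward WAT-ILC2s and 4 of 8 toward SI-ILC2s held under every one in which the gene was tested. Member calls toward SI-ILC2s numbered 8, and became 4 with a filter at RPKM 5 (10 toward WAT-ILC2s, in fewer genes tested), 13 with median-of-ratios scaling, 5 with equal sums and 13 with quantile normalization. Leaving out 1 library gave 4 to 6 toward SI-ILC2s and 11 to 23 toward WAT-ILC2s, with the lone remaining library assumed to vary like the other tissue. Over all genes the filter at RPKM 5 gave 899 and 1182 calls, and leaving out 1 library gave 1492 to 2551 toward WAT-ILC2s. With a replicate block, member calls were 13 and 34, and calls over all 8230 genes rose as well, to 2271 and 3430. Kdm6a, Hdac2, Hdac3, Dnmt3a and Smarca4, uncalled in the main fit, were then among the 34. Their limma adjusted p-values were 0.012, 0.00088, 0.0022, 0.039 and 0.00079. Same-numbered libraries deviated together across genes (r = 0.572), but 2 pairs share only a number. The member median was -0.44 and -0.42 with pseudocounts of 0.1 and 0.5, -0.23 with no filter, -0.40 with the filter at RPKM 5, -0.22 with median-of-ratios scaling, -0.47 with equal sums, -0.21 with quantile normalization and -0.36 to -0.29 without 1 library. Uncalled Kmt2e turned to 0.028 and 0.017 with median-of-ratios scaling and quantile normalization, and Kdm6b to 0.17 and 0.068, with -0.087 to 0.074 without 1 library. The cause of these shifts was not tested. Depth limits members near 1 RPKM and Arid3c in SI-ILC2s.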

Other observations

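Protein-coding genes that overlap the 6 members with large changes, or lie within 20 kb of them, were examined after the values had been seen. There were 12 such genes, of which Il11ra1 overlaps Arid3c and Luzp1 overlaps Kdm1a, each on the opposite strand. The 9 tested genes all lie beside Arid3c, Hdac1 or Hdac10, the members higher in WAT-ILC2s. Of the 9, 7 were called in the direction of the member and 1 (Rpp25l, beside Arid3c) in the opposite direction. Of all tested genes, 17.9% were called toward SI-ILC2s and 29.6% toward WAT-ILC2s. On chromosome 15, the p38 kinase gene Mapk12 lies on the same strand as Hdac10, upstream of it, with 1884 bases between the genes. Mapk12 measured 0.348 and 0.532 RPKM in SI-ILC2s and 19.0 and 15.8 RPKM in WAT-ILC2s (log2 change -3.68 ± 0.16, limma adjusted p = 0.00013). Mapk11, the next p38 kinase gene, measured 0.296 and 0.364 RPKM in SI-ILC2s and 5.77 and 5.96 RPKM in WAT-ILC2s (-2.37 ± 0.13, limma adjusted p = 0.00020). Both were higher in WAT-ILC2s, as Hdac10 was, and by more than Hdac10 was. Beside Hdac1, Marcksl1 measured 6.41 and 5.92 RPKM in SI-ILC2s and 17.4 and 21.2 RPKM in WAT-ILC2s (-1.50 ± 0.15, limma adjusted p = 0.00094), with 119 bases between the genes. Lck, a T cell receptor proximal kinase gene on the other side, was also higher in WAT-ILC2s (-0.78). The neighbours of Kdm1a and Smarce1 were below the filter. Whether neighbours of called genes share direction more often than other gene pairs was not tested.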
